A study of Mus musculus with 12 samples.

Results

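The matrix metalloproteases (Mmp), the secreted ADAMTS proteases (Adamts) and their tissue inhibitors (Timp) were followed through hyperplastic mammary glands of 3 genotypes. Every protein-coding gene of the deposited expression table named Mmp, Adamts or Timp followed by a number was taken, which gave 45 of 54532 genes: 22 Mmp, 19 Adamts and 4 Timp. The samples were 12 RNA libraries from female FVB/N mice of the MIC model, in which doxycycline switches on the polyoma middle T oncogene and Cre recombinase in the mammary epithelium. All 3 groups carried this model and drank water with doxycycline (2 mg/ml), and their titles name lesions and a time of 2 weeks. MIC WT had 4 libraries, as did MIC Chi3l1 ko and MIC Stat3 ko, and they are written here as WT, Stat3 ko and Chi3l1 ko 1 to 4. The alleles behind the knockouts, and whether the 4 samples of a group were separate mice, are not given in the sources used here, so p-values measure the spread between these samples. Age is likewise not given there.

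Matrix metalloproteases are zinc proteases that are made as inactive proenzymes and cut collagens, gelatin, laminins, growth factors and one another. ADAMTS proteases carry thrombospondin repeats that tie them to the matrix, and cut aggrecan, versican, procollagens and von Willebrand factor. Timps bind the active site and block it, and Timp2 also takes part in activating the Mmp2 proenzyme at the cell surface together with Mmp14. In the mammary gland these enzymes are known for remodelling the matrix around growing and regressing ducts, and many of them are made by stromal rather than epithelial cells.

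Of the Mmp genes, 9 sit side by side on mouse chromosome 9. The upstream stretches of some are printed here because they share a short word not found in the other family members that could be searched. RefSeq promoter windows (GRCm38.p6, 250 bases before to 50 bases after a start) were found for 31 of the 45 genes, in 34 windows. The AP-1 word TGAGTCA, read on both strands (TGACTCA on the other), occurred in the windows of 6 of the 9 clustered genes and of 0 of the 22 other matched genes, against 5.2% of all 32851 windows. The genes without a window all lay outside the cluster, so whether they hold the word is not known. A gene was counted if any of its windows held the word, while the 5.2% is a share of single windows. At that share few matches would be expected among 22 genes in any case. The 6 clustered genes with the word were Mmp13, Mmp12, Mmp1b, Mmp3, Mmp10 and Mmp7. The 100 bases before the start of 5 of them are given 5′ to 3′, with the AP-1 word in capitals.

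Mmp13 (chr9:7272414-7272513, plus strand): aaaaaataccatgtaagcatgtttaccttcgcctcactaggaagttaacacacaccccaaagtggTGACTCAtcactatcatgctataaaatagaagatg

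Mmp12 (chr9:7347274-7347373, plus strand): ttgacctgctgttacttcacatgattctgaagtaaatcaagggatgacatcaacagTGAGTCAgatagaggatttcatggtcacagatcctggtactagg

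Mmp3 (chr9:7445722-7445821, plus strand): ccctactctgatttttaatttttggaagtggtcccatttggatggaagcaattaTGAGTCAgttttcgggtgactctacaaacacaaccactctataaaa

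Mmp10 (chr9:7502242-7502341, plus strand): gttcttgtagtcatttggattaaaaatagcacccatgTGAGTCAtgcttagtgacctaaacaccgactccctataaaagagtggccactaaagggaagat

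Mmp7 (chr9:7691990-7692089, plus strand): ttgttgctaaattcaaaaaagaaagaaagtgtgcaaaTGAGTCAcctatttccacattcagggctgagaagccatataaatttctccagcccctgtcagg

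For Mmp12 and Mmp7 RefSeq gives 2 starts, and the word is in the window of 1 of them, the one used here; that of Mmp12 lies inside the gene as the expression table places it (from base 7344381). The word ended 29 bases before the start in Mmp13, 38 in Mmp12, 40 in Mmp3 and 57 in both Mmp10 and Mmp7. The genes that hold it were expressed at very different levels, given below. The STAT word TTCNNNGAA, which reads the same on both strands and does not overlap the AP-1 word, occurred in 1 of the 31 matched genes, against 8.3% of all windows. The other genes reported below as changed in Stat3 ko, Mmp9, Adamts4 and Adamts10, had no window and were not searched. The gene with the word was Mmp23, which rose in Stat3 ko, and a link between the 2 was not tested. It also has 2 RefSeq starts: the word lies at -98 to -90 of one and at -4 to 5 of the other, so the stretch is partly transcribed, with 15 of its 29 bases in an exon. The 29 bases, with the word in capitals, are:

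Mmp23 (chr4:155653370-155653398, minus strand): ttcggcctggTTCCTGGAAtcgcaccggg

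A match is a description of letters and not of binding, and no match says only that the word is not in this window.

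Sequencing depth was even, with 16217143 to 22607123 reads assigned to genes per library. Stat3 ran from 46.2 to 49.7 FPKM (fragments per length of gene and size of library) in WT and from 12.2 to 18.7 in Stat3 ko. Chil1, the table's symbol for Chi3l1, ran from 107 to 212 FPKM in WT, from 4.92 to 17.6 in Stat3 ko and from 0 to 0.0323 in Chi3l1 ko. Luminal epithelial markers such as keratins were high in all libraries, with summed levels of 2165 to 3155 FPKM in WT, 1137 to 2708 in Stat3 ko and 1999 to 2692 in Chi3l1 ko. Some libraries stood apart. Mitochondrially encoded genes took over 2% of reads in 3 libraries, Stat3 ko 1 (4.79%), Stat3 ko 2 (3.37%) and Chi3l1 ko 2 (2.22%). The 10 adipocyte markers summed to 8934 FPKM in Stat3 ko 1, against 966 to 1344 in the other Stat3 ko libraries, 178 to 564 in WT and 270 to 1249 in Chi3l1 ko. The 8 B cell markers summed to 448 FPKM in Stat3 ko 2 and 153 in Stat3 ko 3, against 0.514 to 11.2 in the other 10 libraries. In bulk tissue, fewer cells of a type and less RNA per cell cannot be told apart.

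The levels covered a wide range, and a few stromal and membrane-bound enzymes with 2 inhibitors made up the top. Only 6 genes averaged at least 10 FPKM over the 12 libraries, 20 lay between 1 and 10, and 19 lay under 1. Timp2 was the highest at a mean of 62.4 FPKM, followed by Mmp2, gelatinase A, at 44.2, Mmp15, a membrane-anchored protease, at 41.8, and Mmp14, the membrane-anchored activator of Mmp2, at 27.6. Mmp2 was above Mmp15 only in the Stat3 ko mean (67.8 against 41.8 FPKM), which includes 162 FPKM in Stat3 ko 1. In WT the means were 36.2 for Mmp2 and 41.3 for Mmp15, and in Chi3l1 ko 28.7 and 42.4. Timp1 averaged 18.6 FPKM and Mmp3, stromelysin-1, 14.2. The partners of the Mmp2 activation step, Mmp14, Timp2 and Mmp2, were thus all among the 4 highest genes.

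The ADAMTS genes were lower, and 0 of 19 averaged 10 FPKM. Adamts1, a versican- and aggrecan-cutting protease, led at 8.45 FPKM, ahead of Adamts2, a procollagen N-proteinase, at 7.25 and Adamts10, a protease of fibrillin microfibrils, at 4.95. Adamts7, Adamts4, Adamts15, Adamts5 and Adamts8 averaged 3.64, 2.77, 2.56, 2.37 and 2.10 FPKM. Among the further Mmp genes, Mmp19, Mmp11 (stromelysin-3), Mmp23 and Mmp13 (collagenase-3) averaged 3.68, 3.53, 3.04 and 1.87 FPKM.

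**Figure D1:**
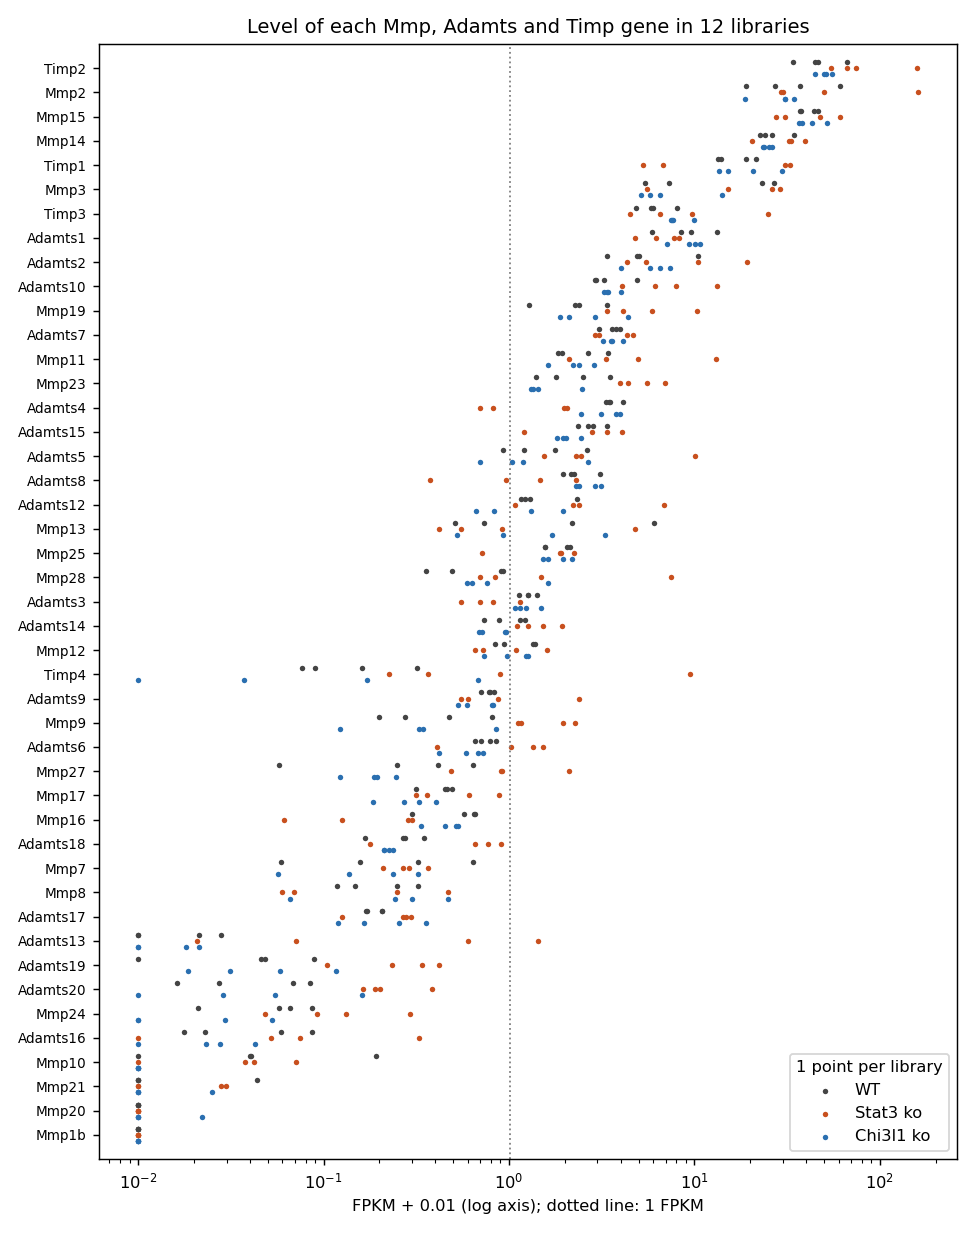
Level of each of the 45 genes, from the highest mean at the top to the lowest, with 1 point per library and 0.01 FPKM added so that values of 0 can be drawn on the log axis. Timp2, Mmp2, Mmp15 and Mmp14 lie at the top in all 3 groups, and Mmp9 lies right of the dotted line at 1 FPKM only in Stat3 ko.

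For testing, a gene had to reach 1 FPKM in at least 4 of the 12 libraries, which 25 of the 45 genes did: 11 Mmp, 11 Adamts and 3 Timp. The 20 left out were Mmp1b, Mmp7, Mmp8, Mmp10, Mmp16, Mmp17, Mmp20, Mmp21, Mmp24, Mmp27, Mmp28, Adamts6, Adamts9, Adamts13, Adamts16, Adamts17, Adamts18, Adamts19, Adamts20 and Timp4. Mmp9 passed only through its 4 Stat3 ko libraries, so its presence among the tested genes already depended on being high there. Reads were seen in all 12 libraries for 35 of the 45 genes. Mmp1b had 0 reads of 221807222 in all libraries, which allows up to 0.0135 CPM (counts scaled to library size; 3 counts, counting error only).

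The 9 clustered genes lay within 427 kb of chromosome 9 (GRCm38, chr9:7272514-7699585), and 3 of them, Mmp13, Mmp12 and Mmp3, passed the filter. Mmp3 averaged 14.2 FPKM, Mmp13 1.87 and Mmp12, macrophage elastase, 1.06. Mmp27 averaged 0.534 FPKM, Mmp7 (matrilysin) 0.246, Mmp8 (neutrophil collagenase) 0.220, Mmp10 (stromelysin-2) 0.0303 and Mmp20 (enamelysin) 0.00102. Neighbours in the cluster therefore ran from 0 reads in Mmp1b to 5954 in Mmp3 over the 12 libraries.

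Loss of Stat3 was compared with WT first. Of the 25 tested genes, 4 were called at an adjusted p under 0.05: Mmp23, Mmp9 and Adamts10 rose and Adamts4 fell. That is 16%, against 14.0% of all 13643 genes tested, and 12% rose against 5.61% of all genes while 4% fell against 8.39%. The test was limma on log2(FPKM + 1) with Benjamini-Hochberg adjustment over all genes, and differences below are on that scale, which understates the change of low genes. The median difference of the 25 genes was 0.29, and that of all genes tested was -0.02. In this test the share of called genes was near the background. The 16% and the 12% include Mmp9, whose call is subject to the limit of the filter given above. The background count of 1911 genes moved with single libraries, to 571 without WT 1, 912 without WT 3, 766 without WT 4, 1100 without Stat3 ko 2 and 3252 without Stat3 ko 4. With quantile normalization the calls were 2 higher and 2 lower instead of 3 and 1, from a changed set of genes. Adamts10 lost its call there (0.82, limma adjusted p = 0.0587), and Adamts8 was newly called lower.

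Adamts4, aggrecanase-1 (chr1:171250421-171260637, plus strand), fell. It measured 3.46, 3.35, 3.48 and 4.11 FPKM in WT 1 to 4, and 0.811, 0.691, 1.96 and 2.06 in Stat3 ko 1 to 4. In Chi3l1 ko 1 to 4 it measured 3.76, 3.12, 2.44 and 3.97 FPKM. All 4 Stat3 ko libraries were below every library of the other groups, and Stat3 ko 1 and 2 were the lowest. The difference from WT was -1.0 ± 0.20 (SE; limma adjusted p = 0.0122), from 3.60 ± 0.345 FPKM (SD, n = 4) in WT to 1.38 ± 0.729 in Stat3 ko. It remained called in all 21 alternatives that tested it, with adjusted p from 0.000575 to 0.0485, but was smaller, -0.61 ± 0.15 (adjusted p = 0.0427), without the 3 libraries over 2% mitochondrial reads. Its lowest libraries, Stat3 ko 1 and 2, were among those 3 and also had the lowest summed luminal markers of the group, 1137 and 1265 FPKM against 2453 and 2708 in Stat3 ko 3 and 4. The part of either in the difference was not tested.

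Mmp23, a protease anchored in the membrane by its propeptide and shed on cleavage (chr4:155650655-155653384, minus strand), rose. It measured 1.79, 2.5, 3.49 and 1.38 FPKM in WT 1 to 4, and 6.90, 5.51, 3.97 and 4.37 in Stat3 ko 1 to 4. In Chi3l1 ko 1 to 4 it measured 1.43, 2.45, 1.31 and 1.34 FPKM. The Stat3 ko libraries were all above the other 8, though Stat3 ko 3 was close to WT 3. The difference from WT was 0.93 ± 0.22 (SE; limma adjusted p = 0.0216), from 2.29 ± 0.922 FPKM (SD, n = 4) to 5.19 ± 1.31. The call ended without WT 1 (limma adjusted p = 0.0715), WT 4 (0.0631) or Stat3 ko 2 (0.0518), and without the 3 libraries over 2% mitochondrial reads (0.0888). It also ended with only the 2 groups compared (0.0638) and with array weights (0.0636).

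Mmp9, gelatinase B, known from neutrophils, macrophages and invasive tumours (chr2:164940780-164955850, plus strand), was also above every other library in Stat3 ko. It measured 0.190, 0.467, 0.804 and 0.266 FPKM in WT 1 to 4, and 2.25, 1.16, 1.94 and 1.11 in Stat3 ko 1 to 4. In Chi3l1 ko 1 to 4 it measured 0.318, 0.844, 0.113 and 0.332 FPKM. These levels rest on few reads, 8 to 144 per library. The difference from WT was 0.86 ± 0.21 (SE; limma adjusted p = 0.0254), and the call ended without WT 1 (0.0815), WT 4 (0.0699) or the 3 libraries over 2% mitochondrial reads (0.0602). The Mmp9 call also ended with only the 2 groups compared (limma adjusted p = 0.0612). Macrophage markers were higher beside Mmp9, and 4 of 10 rose. Their summed level ran from 1281 to 2074 FPKM in Stat3 ko, 622 to 1267 in WT and 740 to 1015 in Chi3l1 ko. Of the 11 neutrophil markers 4 were tested and 1, S100a8, fell, with summed levels of 245 to 931 FPKM in Stat3 ko, 851 to 1316 in WT and 919 to 1986 in Chi3l1 ko. That sum is mostly Ltf, lactoferrin, at means of 626 FPKM in Stat3 ko and 1127 in WT, while S100a9 (0.94 ± 0.70) and Csf3r (0.43 ± 0.20) had positive differences and did not pass. The mean log2 level of the list overlapped between Stat3 ko (1.16 to 2.49) and WT (1.56 to 1.83). The part of either cell type in the Mmp9 difference was not tested.

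Adamts10 (chr17:33524204-33553782, plus strand) had the least firm call. It measured 2.89, 3.23, 4.92 and 2.94 FPKM in WT 1 to 4, and 7.95, 13.2, 6.13 and 4.06 in Stat3 ko 1 to 4. In Chi3l1 ko 1 to 4 it measured 3.26, 3.40, 4.0 and 3.36 FPKM. Stat3 ko 4 lay below WT 3, so the groups overlapped, and Stat3 ko 2 was far above the rest. The difference from WT was 0.90 ± 0.26 (SE; limma adjusted p = 0.0435), and the call ended in 15 of 21 alternatives, 10 of them with 1 library left out. Leaving out any single WT library ended it (adjusted p from 0.0502 to 0.121), as did leaving out Stat3 ko 1 (0.0759), Stat3 ko 2 (0.0763) or any single Chi3l1 ko library (0.0532 to 0.0624). Without the 3 libraries over 2% mitochondrial reads the difference was 0.44 (0.209).

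**Figure D2:**
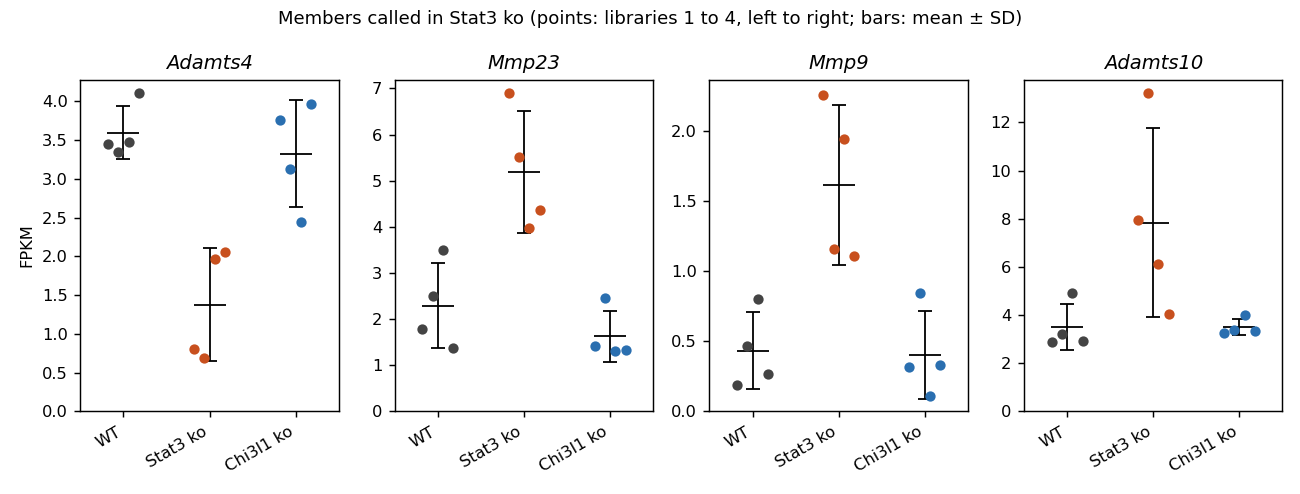
Level in FPKM of the 4 genes called in Stat3 ko, with points for libraries 1 to 4 of each group from left to right and bars for the mean ± SD. Stat3 ko lies apart from WT and Chi3l1 ko for Adamts4, Mmp23 and Mmp9, and overlaps WT for Adamts10.

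Mmp23 was higher in every Stat3 ko library than in every WT library, as were 9.67% of all genes tested; Mmp9 was too, but it entered the test only through its Stat3 ko levels and is not counted. Adamts4, 1 of 25 (4%), was lower in every one, against 11.6%. In addition, 4 genes had an unadjusted p under 0.05 without passing the adjustment: Mmp19 (0.0528 adjusted by limma), Adamts3 (0.0825), Adamts8 (0.0845) and Timp2 (0.0888). The differences were 1.0 ± 0.31 (SE) for Mmp19, -0.34 ± 0.12 for Adamts3, -0.63 ± 0.23 for Adamts8 and 0.78 ± 0.29 for Timp2. Mmp19 shares 22.3% of its exon length with Tmem198b on the opposite strand.

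**Figure D3:**
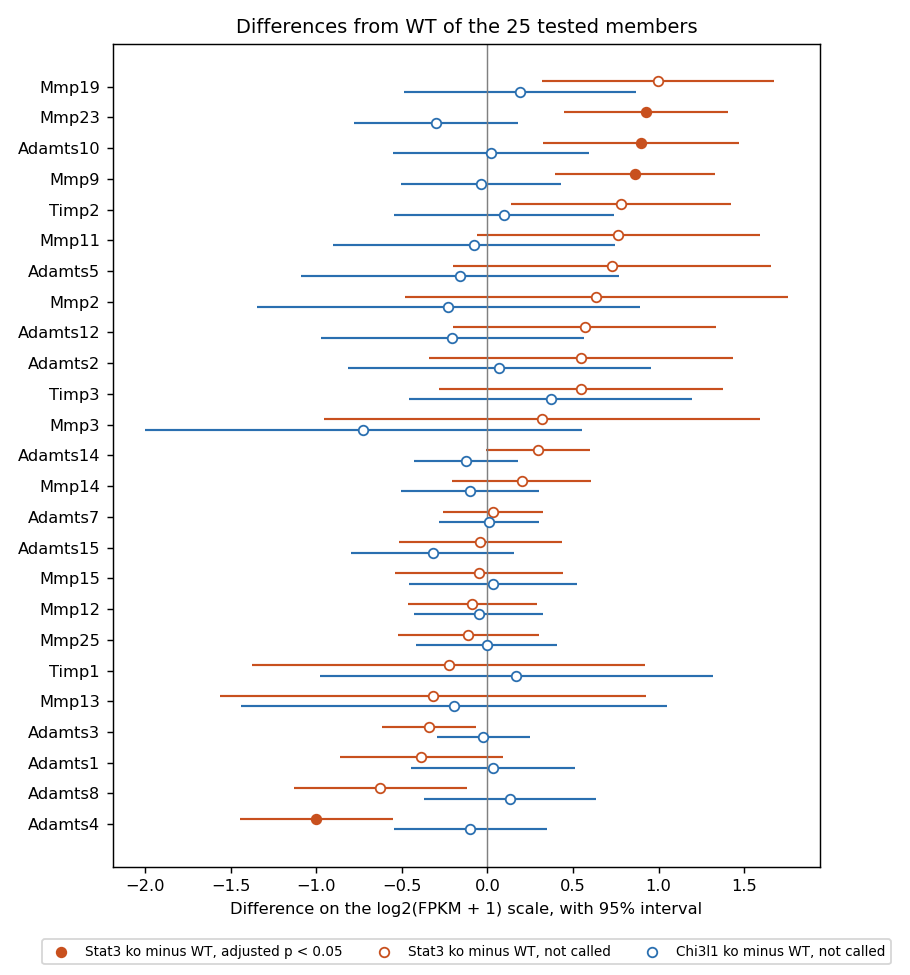
Difference of each of the 25 tested genes from WT on the log2(FPKM + 1) scale, with 95% intervals, for Stat3 ko and Chi3l1 ko; filled points passed the adjusted threshold. The filled points are Mmp23, Adamts10 and Mmp9 to the right and Adamts4 to the left, all in Stat3 ko.

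Of the 4 Timp genes 3 were tested, and limma over all 12 libraries called 0 in any comparison. DESeq2 on reads called Timp2 (0.89 ± 0.32, adjusted p = 0.0323) and Timp4 (4.19 ± 1.43, 0.0212) higher in Stat3 ko than in WT, and Timp4 higher than in Chi3l1 ko (3.69 ± 1.43, 0.0490). In the authors' deposited table for Stat3 ko against WT, described below, Timp2 did not pass (adjusted p = 0.0944) and Timp4 is not listed. Timp1, the inducible inhibitor, was split within Stat3 ko, at 5.27, 6.73, 31.0 and 32.6 FPKM in libraries 1 to 4, against 14.0, 18.9, 21.6 and 13.5 in WT and 20.7, 29.6, 13.5 and 15.2 in Chi3l1 ko. Its 2 low libraries were the Stat3 ko libraries with over 2% mitochondrial reads, and its 2 high ones were above all other libraries. The difference from WT was -0.23 ± 0.52 (SE; limma adjusted p = 0.784). Without the 3 libraries over 2% mitochondrial reads it was 0.89 ± 0.21 (adjusted p = 0.0369), with 2 libraries left in Stat3 ko, so these libraries decide both its sign and its call.

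Timp2 measured 44.7, 46.7, 66.8 and 34.2 FPKM in WT, 159, 66.6, 54.5 and 74.7 in Stat3 ko, and 49.8, 51.3, 44.5 and 55.3 in Chi3l1 ko. Timp3, which binds to the matrix, measured 5.96, 4.83, 8.06 and 5.80 FPKM in WT, 24.9, 4.47, 6.52 and 9.68 in Stat3 ko, and 7.61, 9.96, 7.52 and 7.65 in Chi3l1 ko. For both, Stat3 ko 1 was far above the other 11 libraries, and the remaining Stat3 ko libraries overlapped WT. Timp4, known from adipose tissue and heart, was the extreme case, with 9.49, 0.883, 0.356 and 0.216 FPKM in Stat3 ko 1 to 4, 0.0665 to 0.311 in WT and 0 to 0.675 in Chi3l1 ko. Most of its reads came from Stat3 ko 1, which had 932, against 0 to 94 in each other library.

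**Figure D4:**
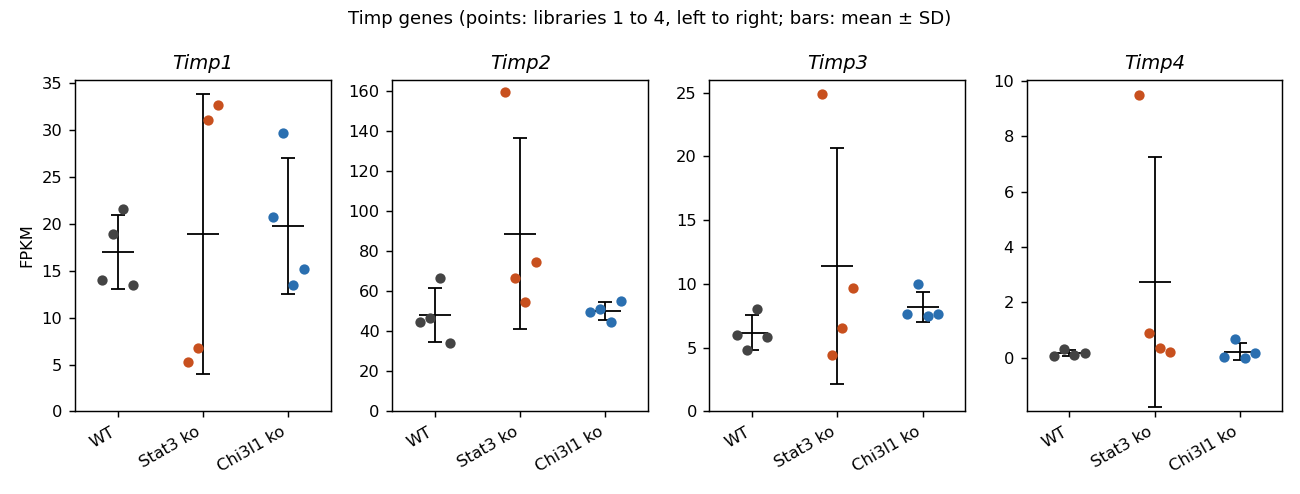
Level of the 4 Timp genes in FPKM, with points for libraries 1 to 4 of each group from left to right and bars for the mean ± SD. Stat3 ko 1 is the highest point for Timp2, Timp3 and Timp4 and the lowest for Timp1.

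The same library led many of the enzymes. Stat3 ko 1 was the highest of the 12 libraries for 13 of the 25 tested genes, while it was the highest for 24.1% of all genes tested. The 13 include Mmp9 and Adamts14, which would not have passed the filter without their Stat3 ko levels. Stat3 ko 1 was the lowest for 4 of 25 genes, against 28.7% of all genes. Mmp2 measured 162 FPKM there, against 29.5 to 50.1 in the other Stat3 ko libraries and 19.0 to 61.4 in WT. Mmp11 measured 13.1 against 2.11 to 4.95 in the others of its group, and Adamts5, aggrecanase-2, 10.1 against 1.54 to 2.43. Adamts2 measured 19.2 FPKM, Adamts12 6.87 and Mmp19 10.3 in this library. Limma called none of these 6 genes against WT, while Mmp19 was called by edgeR and both Mmp19 and Mmp11 by DESeq2. Besides the adipocyte markers, those of fibroblasts were highest in Stat3 ko 1, at a sum of 862 FPKM against 231 to 510 in the rest of its group and 171 to 525 in WT, as were those of endothelium, at 162 against 43.7 to 85.7 and 28.8 to 46.0. All 10 adipocyte and all 9 tested fibroblast markers had positive differences, with 4 and 1 called. The part of these cell types in the levels of Mmp2, Timp2 and the others was not tested.

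**Figure D5:**
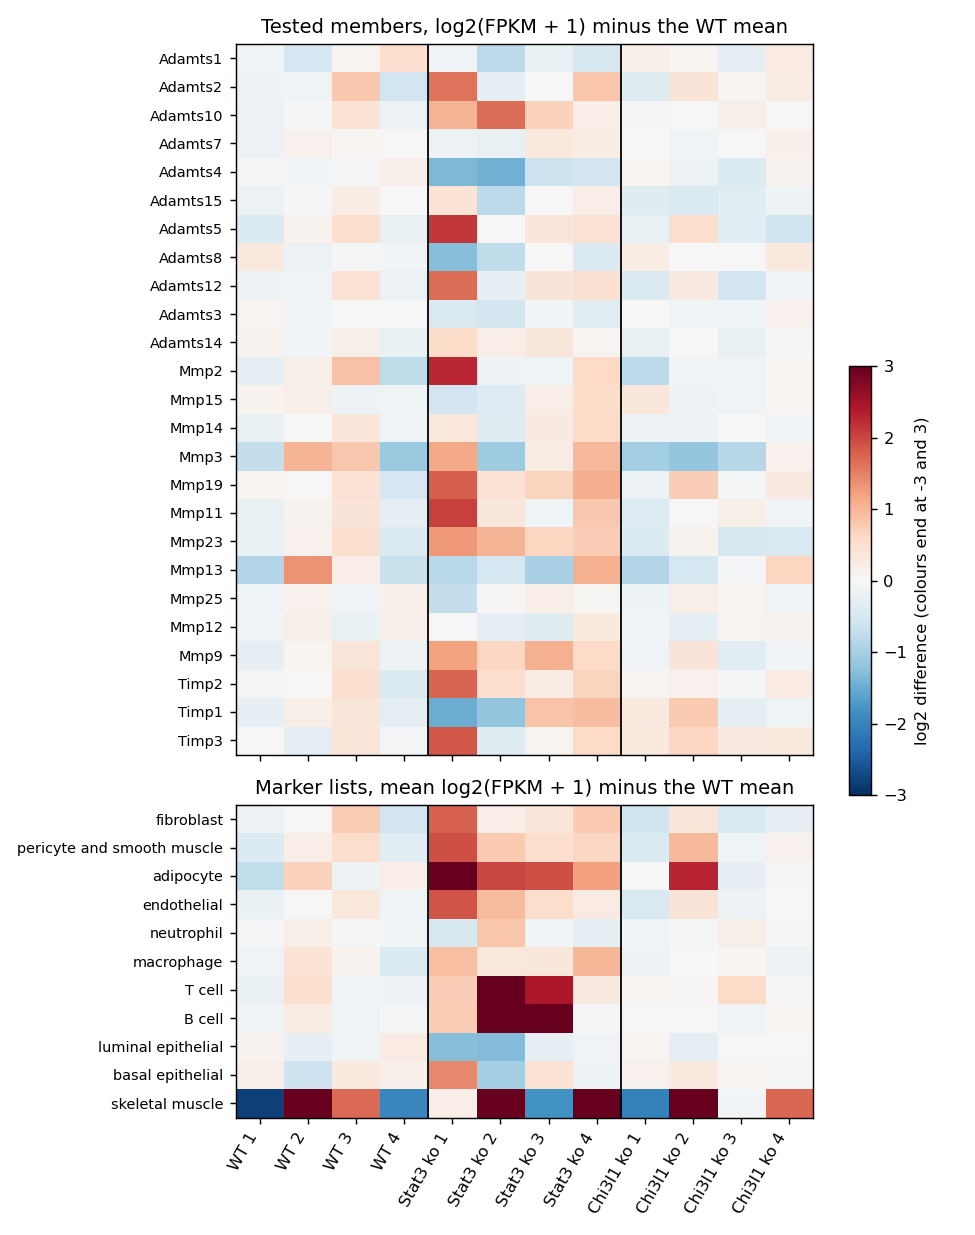
Heat map of the 25 tested genes (top) and of 11 marker lists (bottom) in each library, as log2(FPKM + 1) minus the WT mean, with colours ending at -3 and 3. The column of Stat3 ko 1 is red for Mmp2, Mmp11, Adamts5, Timp2 and Timp3 and for the fibroblast, adipocyte and endothelial lists, and blue for Timp1 and Adamts4.

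Of the tested collagenases, stromelysins and gelatinases, Mmp13, Mmp3, Mmp11, Mmp2 and Mmp9, limma called the last alone in Stat3 ko, and DESeq2 also called Mmp11 (1.26 ± 0.48, adjusted p = 0.0414). In the authors' deposited table Mmp11 did not pass (adjusted p = 0.0940). Mmp13 measured 0.502, 6.02, 2.19 and 0.723 FPKM in WT 1 to 4, so its spread within WT exceeded its difference from Stat3 ko of -0.32 ± 0.57 (SE). Mmp3 was as uneven, at 7.30, 26.8, 23.0 and 5.40 in WT and 29, 5.56, 15.1 and 26.2 in Stat3 ko. Of the membrane-bound enzymes, Mmp14 differed by 0.20 ± 0.18 and Mmp15 by -0.05 ± 0.22, with 95% intervals reaching at most 0.60 and 0.54 from 0. The procollagen N-proteinases differed in sign, with 0.55 ± 0.40 for Adamts2, -0.34 ± 0.12 for Adamts3 and 0.29 ± 0.14 for Adamts14. The most even genes across the 3 groups included Adamts7, at 3.58 ± 0.397, 3.73 ± 0.894 and 3.61 ± 0.369 FPKM (SD, n = 4) in WT, Stat3 ko and Chi3l1 ko.

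The genes under the filter were followed through reads. The deposited FPKM gave back whole reads, and edgeR on these reads, with 36 of the 45 genes tested, called 6 against WT (16.7%, against 18% of all genes): the 4 above together with Mmp19 (1.35, adjusted p = 0.0451) and Mmp16, a membrane-bound protease, which fell by 1.54 on the log2 scale (adjusted p = 0.0450). Mmp16 had 99, 126, 93 and 48 reads in WT 1 to 4 and 40, 8, 53 and 19 in Stat3 ko. DESeq2 called 16 of the 41 to which it gave an adjusted p (39.0%), against 21.7% of all 20207 such genes. Several of its extra calls rest on few reads, such as Adamts19 with 0 to 7 per WT library and 8 to 32 per Stat3 ko library, and Adamts20 with 1 to 15 and 26 to 61. Others had far more reads in Stat3 ko 1 than in the rest of that group. Timp4 had 932 against 24 to 94, Mmp28 484 against 48 to 121 and Mmp11 607 against 123 to 260. How far single libraries carry the 39.0% was not tested. The authors' deposited table for this comparison holds genes with an unadjusted p under 0.05. Of the 45 genes it lists 17, 10 of them with an adjusted p under 0.05, 8 higher and 2 lower. Over all genes it lists 6155, 3547 of them with an adjusted p under 0.05. It leaves out genes above the unadjusted limit, so it gives no share of all genes tested. In the authors' deposited table Adamts4 has a log2 fold change of -1.39, Mmp9 of 1.89, Mmp23 of 1.17 and Adamts10 of 1.15.

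Loss of Chi3l1 gave no call in these families. Of the 25 tested genes, 0 passed limma's adjusted threshold against WT, against 0.00733% (1 gene) of all genes tested, and 0 had an unadjusted p under 0.05. Likewise 0 of 25 lay above every WT library, against 1.12% of all genes, and 0 lay below every one, against 1.36%. edgeR also called 0 of 36, against 0.00608% of all genes, and DESeq2 0 of 41, against 0.0357%. The median difference was -0.04, beside 0.00 for all genes. The lowest p belonged to Adamts15, at 2.80 ± 0.437 FPKM (SD, n = 4) in WT and 2.04 ± 0.271 in Chi3l1 ko, a difference of -0.32 (95% interval -0.79 to 0.16). The authors' deposited table lists Adamts15 with a log2 fold change of -0.45 (adjusted p = 0.428) and Timp3 with 0.42 (adjusted p = 0.900), and no further gene of these families.

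How much these data can say about Chi3l1 ko differs by gene. The 95% interval reached 0.30 from 0 on the log2(FPKM + 1) scale for Adamts7 and Adamts3, and 0.43 for Mmp12 and Adamts14. Adamts3, Mmp12 and Adamts14 averaged only 1.26, 1.12 and 0.987 FPKM in WT, where this scale understates a change. Their narrow intervals are therefore not narrow limits on the fold change. The 95% interval reached 0.50 for Mmp14, at 26.8 FPKM in WT, and 0.55 for Adamts4. A fall of the size seen in Stat3 ko for Adamts4 lay outside the interval of that gene. For Mmp9 it ran from -0.50 to 0.43, so a rise of the size seen in Stat3 ko lay outside it. Mmp9 was under 1 FPKM in every WT library, where this scale leaves little room for a fall, so a large fall was not excluded. It also entered the test only through its Stat3 ko levels. The interval ran from -2.0 to 0.55 for Mmp3 and from -1.44 to 1.05 for Mmp13. Differences within those ranges were not excluded for these 2 genes. Timp1 ran from -0.98 to 1.32.

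Stat3 ko and Chi3l1 ko were also compared directly, with the Stat3 ko libraries shared between this comparison and the one against WT. The called genes were again Mmp23, Mmp9 and Adamts10, higher in Stat3 ko, and Adamts4, lower. That is 4 of 25 (16%) against 13.2% of all genes, with 5.19% of all genes higher and 8.0% lower. The 16% includes Mmp9, which entered the test only through its Stat3 ko levels. The count over all genes, 1799, was 611, 773 and 686 without Chi3l1 ko 1, 3 and 4, 1074 without Stat3 ko 2 and 2890 without Stat3 ko 4. Mmp23 had the largest difference, 1.23 ± 0.22 (SE; limma adjusted p = 0.00652), and it remained called in all 21 alternatives. Adamts4 differed by -0.90 ± 0.20 (adjusted p = 0.0184), Mmp9 by 0.90 ± 0.21 (0.0217) and Adamts10 by 0.87 ± 0.26 (0.0490). The Adamts4 call ended without Chi3l1 ko 1 (0.0623) or Chi3l1 ko 4 (0.0611) and without the 3 libraries over 2% mitochondrial reads (0.0673). With only the 2 groups compared, the Adamts4 call (limma adjusted p = 0.0760) and the Mmp9 call (0.0629) ended. The Mmp9 call also ended without Chi3l1 ko 1 (0.0658), Chi3l1 ko 3 (0.0637) or Chi3l1 ko 4 (0.0619). That of Adamts10 ended in 16 of 21 alternatives, among them each single library left out except Stat3 ko 4 (0.0536 to 0.122). Adamts14 was higher in all 4 Stat3 ko libraries (1.09 to 1.92 FPKM) than in all 4 Chi3l1 ko libraries (0.681 to 0.957), and at 0.42 ± 0.14 did not pass (0.0689). Mmp23 and Adamts10 were higher without overlap, as were 6.85% of all genes tested. Mmp9 and Adamts14 are left out here, because neither would have passed the filter without its Stat3 ko levels. Adamts14 reached 1 FPKM in 4 Stat3 ko, 2 WT and 0 Chi3l1 ko libraries. With both included, 4 of 25 (16%) were higher without overlap. Adamts4, 1 of 25 (4%), was lower, against 10.2% of all genes.

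The surrounding protease network was taken from 9 lists of 89 genes, of which 68 were tested. Against WT, 6 rose and 8 fell in Stat3 ko, 0 changed in Chi3l1 ko, and between the knockouts 6 were higher and 9 lower in Stat3 ko. That is 20.6% of the 68 against 14.0% of all genes tested, 0% against 0.00733%, and 22.1% against 13.2%. In the list of astacin and glycan-degrading enzymes, Hpse, heparanase, rose by 1.30 ± 0.14 (SE; limma adjusted p = 0.000278), while Sulf2, an extracellular sulfatase, fell by 1.79 ± 0.30 (0.00488) and its relative Sulf1 rose by 0.74 ± 0.22 (0.0445). Bmp1, the procollagen C-proteinase, fell by 0.85 ± 0.19 (0.0177), so 2 of the 6 tested genes of that list rose and 2 fell. Papln, papilin, an ADAMTS-like matrix protein, fell by 1.34 ± 0.25 (0.00916), the 1 call among 3 tested.

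Among activators and clearance receptors, 1 of 8 rose and 2 fell. Furin, the convertase that activates membrane-bound Mmps and Mmp11, fell by 0.54 ± 0.12 (limma adjusted p = 0.0180), and Itgav, an integrin chain, by 0.63 ± 0.14 (0.0163). Lrp1, a receptor that clears proteases and their inhibitors, rose by 0.93 ± 0.28 (0.0473). Of the membrane-bound ADAM proteases, 2 of 8 rose and 2 fell: Adam9 and Adam17, sheddases, were lower by -0.54 ± 0.11 (0.0133) and -0.41 ± 0.10 (0.0269), and Adam19 and Adam33 were higher by 0.68 ± 0.18 (0.0345) and 0.88 ± 0.25 (0.0393). Of the plasminogen system, Plau, urokinase, rose by 0.58 ± 0.15 (0.0292), 1 of 5 tested.

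Of 12 tested collagens and elastic fibre genes, 0 rose and 1, Col7a1, the anchoring fibril collagen, fell by 0.71 ± 0.19 (limma adjusted p = 0.0340). Of 14 proteoglycans and glycoproteins 0 were called, although their median difference of 0.54 was above the -0.02 of all genes and that of the collagens and elastic fibre genes was 0.29. Of 9 collagen crosslinking genes and 3 other metalloprotease inhibitors 0 were called. Between the knockouts, Col6a1 at 1.28 ± 0.37 (0.0446) and Dcn, decorin, at 1.82 ± 0.55 (0.0499) were higher in Stat3 ko, and Tnc, tenascin-C, at -1.46 ± 0.41 (0.0406) and Plod2, a collagen lysyl hydroxylase, at -0.64 ± 0.13 (0.0118) were lower. Summed collagen and elastic fibre levels were highest in Stat3 ko 1, at 1118 FPKM, and ran from 328 to 836 in the rest of that group and from 346 to 920 in WT.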

How the data were processed

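RNA from 12 libraries, 4 in each of 3 genotypes, was analysed, and the sample titles name lesions. The authors deposited FPKM per gene, and, per the file headers, comparison tables with raw counts, log2 fold changes and p-values of genes with an unadjusted p under 0.05. The submitters' processing notes list STAR, HTSeq and Trimmomatic, limma and edgeR, and as builds mm10 and GRCm38, with no versions or roles; the strand setting is not given in the sources used here. FPKM times gene length gave whole reads for 100% of values (within 0.01 read) in each library, and 0 of 55832 deposited counts differed from them. Depth was 16217143 to 22607123 reads per library.

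The 13643 genes that reached 1 FPKM in 4 or more libraries were tested on log2(FPKM + 1) with limma 3.58.1 (trend, two-sided, 3 group means over all 12 libraries, R 4.3.3) and Benjamini-Hochberg adjustment, and called at an adjusted p under 0.05. Alternatives were testing unfiltered genes or those averaging 5 FPKM or more, a pseudocount of 0.1, quantile and median-of-ratios scaling, only the 2 groups compared, array weights, edgeR 4.0.16 (quasi-likelihood, TMM) and DESeq2 1.42.0 on the recovered reads, each library left out, and the 3 libraries over 2% mitochondrial reads left out. The code was tested on simulated data. Exon overlaps came from GENCODE M21 (GRCm38) and promoters from RefSeq; 1 overlap is not reported here.

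Values are given for every library for genes called in any comparison and for the Timp genes, and levels for the 8 highest Mmp and the 8 highest Adamts genes; the other genes are given by ranges and counts or, where named beyond this, were chosen after their values were seen. Members and lists were chosen with earlier results of these data known.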

Additional observations from a re-analysis of the deposited data

Results flagged for a closer look

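In 8 of the 75 combinations of a tested gene and a group, 1 library lay far from the other 3 (gap over range above Dixon's 95% critical value). Chance gives about 1 in 20 for independent, normally distributed values. The rule was used on FPKM without a log scale, and genes of 1 library can move together. The 8 of 75 is therefore not a measure of an excess. Stat3 ko 1 stood out for Mmp2, at 162 FPKM against 29.5 to 50.1 in its group, and for Adamts5, at 10.1 against 1.54 to 2.43. Stat3 ko 4 stood out for Mmp13, at 4.77 FPKM against 0.410 to 0.911. Chi3l1 ko 2, which had 2.22% mitochondrial reads, stood out for Timp3, at 9.96 FPKM against 7.52 to 7.65, and for Mmp23, at 2.45 against 1.31 to 1.43. Chi3l1 ko 4 stood out for Mmp3, at 14.1 FPKM against 5.15 to 6.54. WT 3 stood out for Adamts10, at 4.92 FPKM against 2.89 to 3.23, and for Adamts12, at 2.32 against 1.16 to 1.29. In all 8 cases the library that stood apart was the highest of its group.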

How the results depend on the processing

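No paired analysis was possible because the labels give no replicate numbers that the groups share. Over 22 alternatives, of which 12 left out 1 library, the called genes kept their call in 119 of 168 single-gene alternatives, lost it in 49 and reversed in 0. Against WT, Stat3 ko had 3 genes called higher and 1 lower. Higher calls numbered 0 with a mean of at least 5 FPKM (9 genes of these families left to test), 0 with only the 2 groups compared, 1 with array weights (Mmp9), 1 without the 3 libraries over 2% mitochondrial reads (Timp1) and 13 with DESeq2. Lower calls numbered 0 with a mean of at least 5 FPKM, 2 with quantile normalization (Adamts4 and Adamts8), 2 with edgeR and 3 with DESeq2. With 1 library left out they ran from 0 to 5 higher, 0 without WT 1 or WT 4 and 5 without Stat3 ko 3, and from 1 to 3 lower, 3 without Stat3 ko 3. Between Stat3 ko and Chi3l1 ko, also 3 higher and 1 lower, higher calls numbered 0 with a mean of at least 5 FPKM, 1 with only the 2 groups compared, 6 with edgeR and 14 with DESeq2. Lower calls there numbered 0 with that filter, 2 with median-of-ratios scaling, 2 with quantile normalization, 0 with only the 2 groups compared, 4 with DESeq2 and 0 without the 3 libraries over 2% mitochondrial reads. With 1 library left out they ran from 1 to 4 higher, 1 without Chi3l1 ko 1, 3 or 4, and from 0 to 3 lower, 0 without Chi3l1 ko 1 or 4, 3 without Stat3 ko 3 and 2 without Stat3 ko 4. Chi3l1 ko against WT had 0 calls in these families under all 22. The cause of these changes was not tested, apart from the smaller number of genes or samples that an alternative leaves. Over all genes, the calls of Stat3 ko against WT fell from 1911 to 506 with only the 2 groups compared. They rose to 2955 with edgeR and 4392 with DESeq2. Those of Stat3 ko against Chi3l1 ko fell from 1799 to 505 with only the 2 groups compared, and rose to 2482 with edgeR and 4051 with DESeq2. Depth limits Mmp9, which had 8 to 144 reads per library.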

Other observations

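Adamts13, which cuts von Willebrand factor, was named after its values were seen. It had 127 reads in Stat3 ko 2 and 61 in Stat3 ko 3, but 5 in Stat3 ko 1, 1 in Stat3 ko 4 and 0 to 2 in each WT and Chi3l1 ko library. These 2 libraries were also the highest for the summed T cell markers, at 280 and 164 FPKM against 16.6 to 43.8 in the other 10, and for the B cell markers given above. The part of these cells in the Adamts13 level was not tested. In the authors' deposited table Adamts13 has a log2 fold change of 6.09 in Stat3 ko against WT. Mmp28 followed Stat3 ko 1, with 484 reads there against 24 to 138 in each other library. Skeletal muscle markers differed between libraries of all 3 groups, from 14.2 to 2565 FPKM in WT, 46.3 to 9623 in Stat3 ko and 35.9 to 7977 in Chi3l1 ko.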
